A study of Oryza sativa with 4 samples.

Results

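The transcripts described here are those of lipid metabolism and of lipid transfer proteins in rice leaves, measured with and without nitrate in etiolated and in light-grown seedlings. Members were the array probes whose deposited description named a lipid transfer protein, lipase, phospholipase, acyl carrier protein, acyl-CoA, fatty acid, desaturase, ketoacyl enzyme, oleosin, sterol or squalene. Descriptions with P450, carotene, phytoene, phospholipid-transporting, transporter or kinase, and 1 single probe, were left out. The rule took 176 of 21495 probes. It reads descriptions and 1 probe name rather than measured values, but it was set with earlier results of these data known. Each of the 176 probes had its own cDNA accession, but they shared 108 descriptions, and 28 members were described from an Oryza sequence. Nearly all others carry the name of a sequence from another species, so a description gives a likely family rather than a proven rice gene, and probes with 1 description may be clones of 1 gene.

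Oryza sativa indica var. Panvel by the labels, genotype Panvel1 in the study's methods, was raised for 8 to 10 days without nutrients. The 4 groups were leaves of etiolated seedlings treated with 120 mM nitrate in dark, leaves of etiolated seedlings given distilled water in dark, leaves of light-grown seedlings (12 h diurnals) treated with 120 mM nitrate, and leaves of light-grown seedlings given distilled water. Treatment lasted 2 h by the labels, and the study's methods state a shorter time. The leaves were excised and floated on a solution of potassium nitrate or on water, so potassium differed along with nitrate. Each of the 4 two-colour arrays carried the nitrate-treated and the water-treated RNA of 1 biological replicate, with 2 replicates in dark and 2 in light and the dyes flipped between them. The study asked how far the nitrate response depends on light.

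Plant fatty acids are built in plastids on acyl carrier protein, and stearoyl-ACP desaturase puts in the first double bond. FAD2-type and omega-3 desaturases add further double bonds in the endoplasmic reticulum and in plastids, elongases lengthen acyl chains for waxes and other very-long-chain products, and beta-oxidation breaks chains down in peroxisomes. Non-specific lipid transfer proteins are small secreted proteins that bind lipids and are best known for their part in cuticle formation and defence, while GDSL lipases are a large plant family of secreted esterases.

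The methods describe the normalized value as signal channel over adjusted control, and the deposited ratios followed channel 2 over channel 1 on all 4 arrays (r = 0.981 to 0.994 across probes). The labels name the dyes but not the treatment in each channel, so nitrate in channel 2 is the likely direction of every signed nitrate value below. Nitrate induces nitrate reductase and nitrite reductase in leaves. Their probes were higher in channel 2 for 6 of 6 on each dark array and 4 of 6 on each light array. The dark counts include ratios near 0, at log2 0 for A_71_P122972 on replicate 1 and 0.005 for A_71_P128019 on replicate 2. Both of these probes had negative ratios on each light array. The 4 probes higher on each light array had mean log2 ratios from 0.838 to 3.55 in dark and from 1.827 to 6.379 in light. Between 75.5% and 79.0% of the spots on an array were well above background. The 19 green-leaf probes, 17 of chlorophyll-binding and light-harvesting proteins, 1 of the Rubisco small subunit and 1 of a methyltransferase that acts on it, summed to 65800 to 70200 units in etiolated nitrate-treated leaves, 63000 to 87600 in etiolated water-treated leaves, 604000 to 617000 in light-grown nitrate-treated leaves and 447000 to 743000 in light-grown water-treated leaves. Both protochlorophyllide oxidoreductase probes, a marker of etiolated leaves, summed to 60500 to 61900 units in etiolated water-treated leaves, against 82100 to 172000 in light-grown water-treated leaves, and so were not higher in the etiolated ones. Of 9 glutelin and prolamin probes of the seed endosperm, 7 were not well above background in etiolated leaves. In whole leaves, fewer cells of a type and less RNA per cell cannot be told apart.

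Of the members, 127 were well above background in all 8 channels, 28 in some channels and 21 in none. Those in none held 6 lipases, 4 phospholipases and both probes described as oleosins, the coat proteins of seed oil bodies, which were ole16 (A_71_P112256, AK103379) and an At1g48990-like oleosin (A_71_P113607, AK108377). In 8 members a spot was saturated on at least 1 array.

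Nitrate in dark moved few lipid transcripts. By the rule below, 3 desaturases, 1 lipid transfer protein and 1 acyl-CoA oxidase rose, and 3 lipases and 2 elongases fell. A transcript was called where nitrate over water differed by 1 or more on the log2 scale with limma's unadjusted p at most 0.05, the thresholds of the study. By this rule 10 of 176 members were called in etiolated leaves, 5 higher and 5 lower (5.68%), where 759 of 21495 probes on the array were called (3.53%, with 1.81% higher and 1.72% lower). The median log2 ratio was 0.04 over the members and −0.01 over all probes, and 146 members stayed within 0.5 of 0. In all 30 members had an unadjusted p of at most 0.05 at any fold, as 15.9% of all probes did. After Benjamini-Hochberg adjustment over all probes 1 member was left, of 48 probes on the array.

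The largest rise was that of a delta-12 oleic acid desaturase of the FAD2 type (A_71_P118977, AK070559, described from Vernicia fordii), the enzyme that turns oleic into linoleic acid in the endoplasmic reticulum. Its normalised signal, in arbitrary units, was 1894 and 1709 in etiolated nitrate-treated leaves, against 326 and 279 in etiolated water-treated leaves. In light-grown leaves it was 187 and 251 with nitrate and 199 and 181 with water. Only both etiolated nitrate-treated samples were high, and the other 6 values lay between 181 and 326. The log2 ratio was 2.58 (SE 0.19, n = 2 arrays, 5.97-fold, limma adjusted p = 0.0485) in dark and 0.19 in light (unadjusted p = 0.355). It remained called in dark under each of 15 alternative settings.

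An omega-6 desaturase (A_71_P118975, AK105371, described from Gossypium hirsutum) acts on the same kind of substrate and also rose in dark. It gave 135 and 76.5 units in etiolated nitrate-treated leaves, against 33.7 and 15.7 in etiolated water-treated leaves. The light-grown samples, from 6.84 to 15.4 units, were not well above background. Its log2 ratio in dark was 2.14 (SE 0.18, n = 2, limma unadjusted p = 0.0001818). Not every FAD2-like probe moved: one described from sesame (A_71_P104239, AK065239) had log2 ratios of −0.04 in dark and −0.06 in light, with saturated spots on some light arrays.

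A stearoyl-ACP desaturase (A_71_P119843, AK105852, described from sesame) had 1717 and 1800 units in etiolated nitrate-treated leaves, against 779 and 832 in etiolated water-treated leaves. With light the values were 267 and 249 after nitrate, against 135 and 126 after water. Nitrate-treated leaves were above their water controls on all 4 arrays. The log2 ratio was 1.13 (SE 0.13, n = 2, limma unadjusted p = 0.0006225) in dark and 0.98 (unadjusted p = 0.001087) in light, where it missed the fold limit. The other 6 stearoyl-ACP desaturase probes had dark ratios between −0.24 and 0.40, and none was called.

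**Figure D1:**
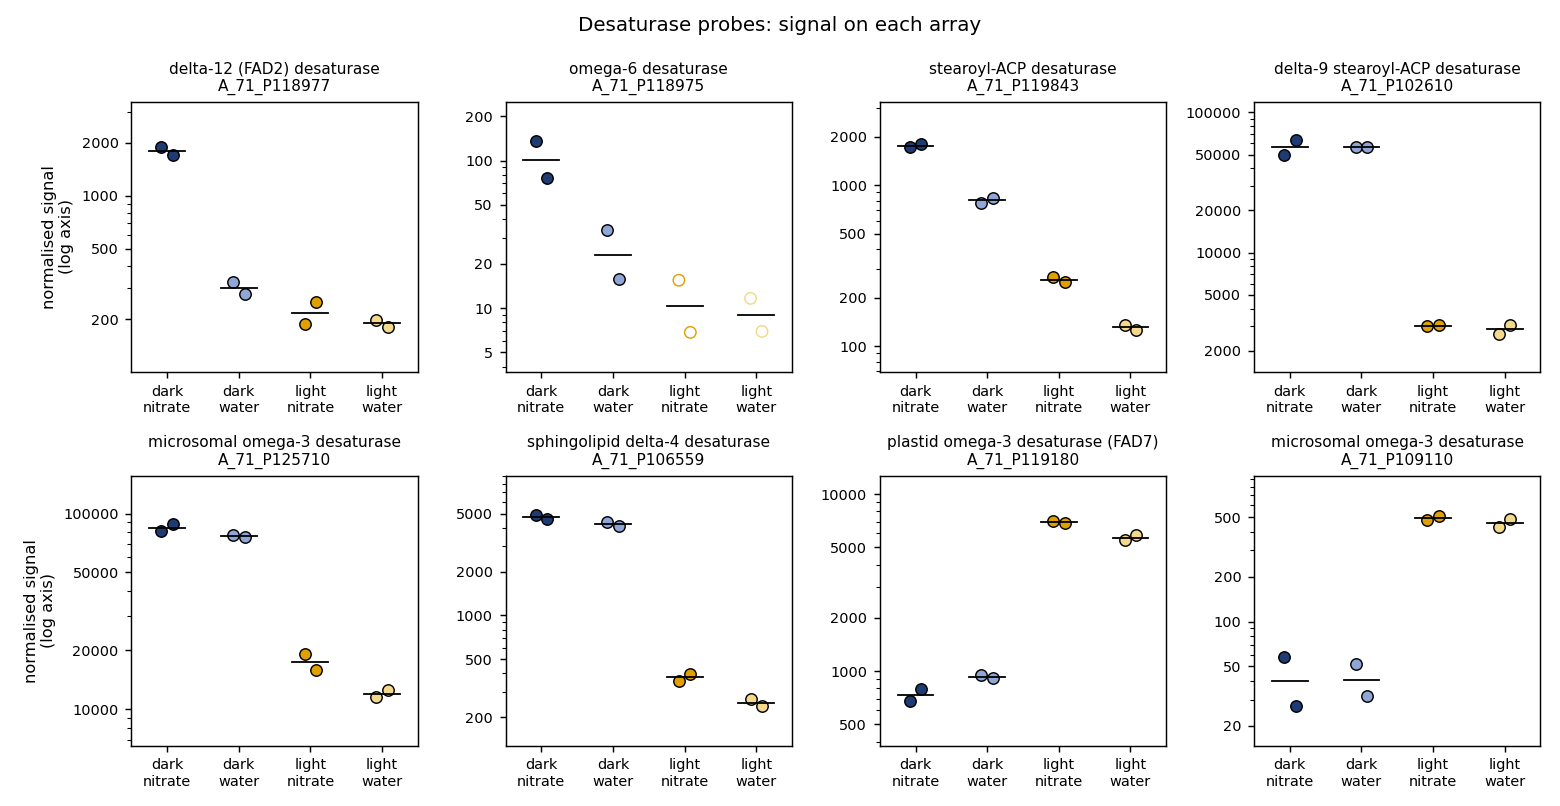
Normalised signal (arbitrary units, log axis) of named desaturases in the 8 samples, by group. Each circle is 1 array, the line is the geometric mean of 2, and open symbols mark groups not well above background on either array. The FAD2-type probe is high in both etiolated nitrate-treated samples (1894 and 1709) and in no other.

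Among lipid transfer proteins 1 of 23 probes was called in dark (4.35%, against 3.53% of all probes). This non-specific protein described as barley ltp-BR1 (A_71_P102908, AK064045) had 83.4 and 99.8 units in etiolated nitrate-treated leaves, against 14.9 and 25.6 in etiolated water-treated leaves, and 10.7 to 20.5 units in light-grown leaves. The etiolated nitrate-treated group was well above background and no other was. The rise was 4.67-fold with the scanner software's background correction (log2 2.23, limma unadjusted p = 0.000189, n = 2). With normexp background correction it was 1.38-fold, so no lower bound is given. The other probes with this description, A_71_P115043 (AK062463), A_71_P115044 (AK063729) and A_71_P116418 (AK062667), had ratios of 0.84, 0.69 and 0.14 and stayed under the fold limit. A rice lipid transfer protein precursor (A_71_P126871, AK072917) showed how replicates could part. Its log2 ratios were 1.92 and 0.87 in dark and −1.20 and 1.95 in light, and the dark mean of 1.39 did not pass (unadjusted p = 0.158).

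In beta-oxidation an acyl-CoA oxidase (A_71_P115715, AK063051, described from barley), the first enzyme of the cycle, had 92.6 and 35.2 units in etiolated nitrate-treated leaves, against 32.2 and 25.0 in etiolated water-treated leaves. Replicate 1 carried most of the log2 ratio of 1.01 (SE 0.33, n = 2, limma unadjusted p = 0.0338), which was 0.50 without dark replicate 1. The call was also lost with a dye term (unadjusted p = 0.0633), with the scanner software's own log ratios (0.997, unadjusted p = 0.0720) and in the deposited ratios (0.76). The second acyl-CoA oxidase probe with this description, A_71_P115716 (AK100758), stood at −0.31.

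The largest fall was that of a GDSL-motif lipase resembling Arabidopsis At5g55050 (A_71_P116308, AK110292). It had 49.5 and 105 units in etiolated nitrate-treated leaves, against 645 and 603 in etiolated water-treated leaves. In light-grown leaves it had 347 and 285 units with nitrate, against 837 and 828 with water. The nitrate-treated samples lay below all water-treated samples in both conditions. The log2 ratio was −3.11 (SE 0.32, n = 2, 8.65-fold lower, limma unadjusted p = 0.0004453, adjusted p = 0.0754) in dark, and −1.75 with normexp background correction. A GDSL lipase resembling At1g71250 (A_71_P105400, AK070261) had 21.6 and 48.3 units in etiolated nitrate-treated leaves, against 78.5 and 96.7 in etiolated water-treated leaves (log2 −1.43, SE 0.24, unadjusted p = 0.003392). In light it had 133 and 154 units with nitrate, against 88.1 and 107 with water, a ratio in the opposite direction that did not pass (0.56, unadjusted p = 0.0784).

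The third lipase, resembling At1g28580 (A_71_P103380, AK072891), met the thresholds in dark (−1.42, unadjusted p = 0.005507) at 8.07 and 17.6 units in etiolated nitrate-treated leaves, against 30.5 and 33.3 in etiolated water-treated leaves. Neither group was well above background, so no fold is given, and it was picked out after its values were seen. Without dark replicate 1 its log2 value was −0.92.

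Both called elongases fell. The probe resembling At2g28630 (A_71_P104639, AK107210) had 2191 and 2290 units in etiolated nitrate-treated leaves, against 6261 and 8045 in etiolated water-treated leaves (log2 −1.66, SE 0.35, limma unadjusted p = 0.007567, n = 2). A fae2-type longase described from maize (A_71_P108642, AK064127) had 5694 and 3749 units in etiolated nitrate-treated leaves, against 9890 and 9934 in etiolated water-treated leaves (log2 −1.10, SE 0.22, unadjusted p = 0.006107). Without dark replicate 2 the first had −1.52 and the second −0.80, and neither call stood. The other 5 fae2 probes had dark ratios from −0.42 to 0.26.

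No member of the plastid fatty acid synthesis, phospholipase, sterol, oleosin, other acyl-CoA or other fatty acid groups was called in dark. The 10 probes of plastid synthesis, which hold acyl carrier proteins and ketoacyl-ACP synthases, had dark ratios from −0.24 to 0.31. With normexp background correction in place of the scanner software's own, the dark calls of A_71_P118975 (0.50), A_71_P102908 (0.47), A_71_P115715 (0.26), A_71_P105400 (−0.25) and A_71_P103380 (−0.14) were lost. All 5 were dim, with no dark value above 135 units, and normexp here adds an offset of 50 to each channel, which by construction draws the ratios of dim probes towards 0.

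**Figure D2:**
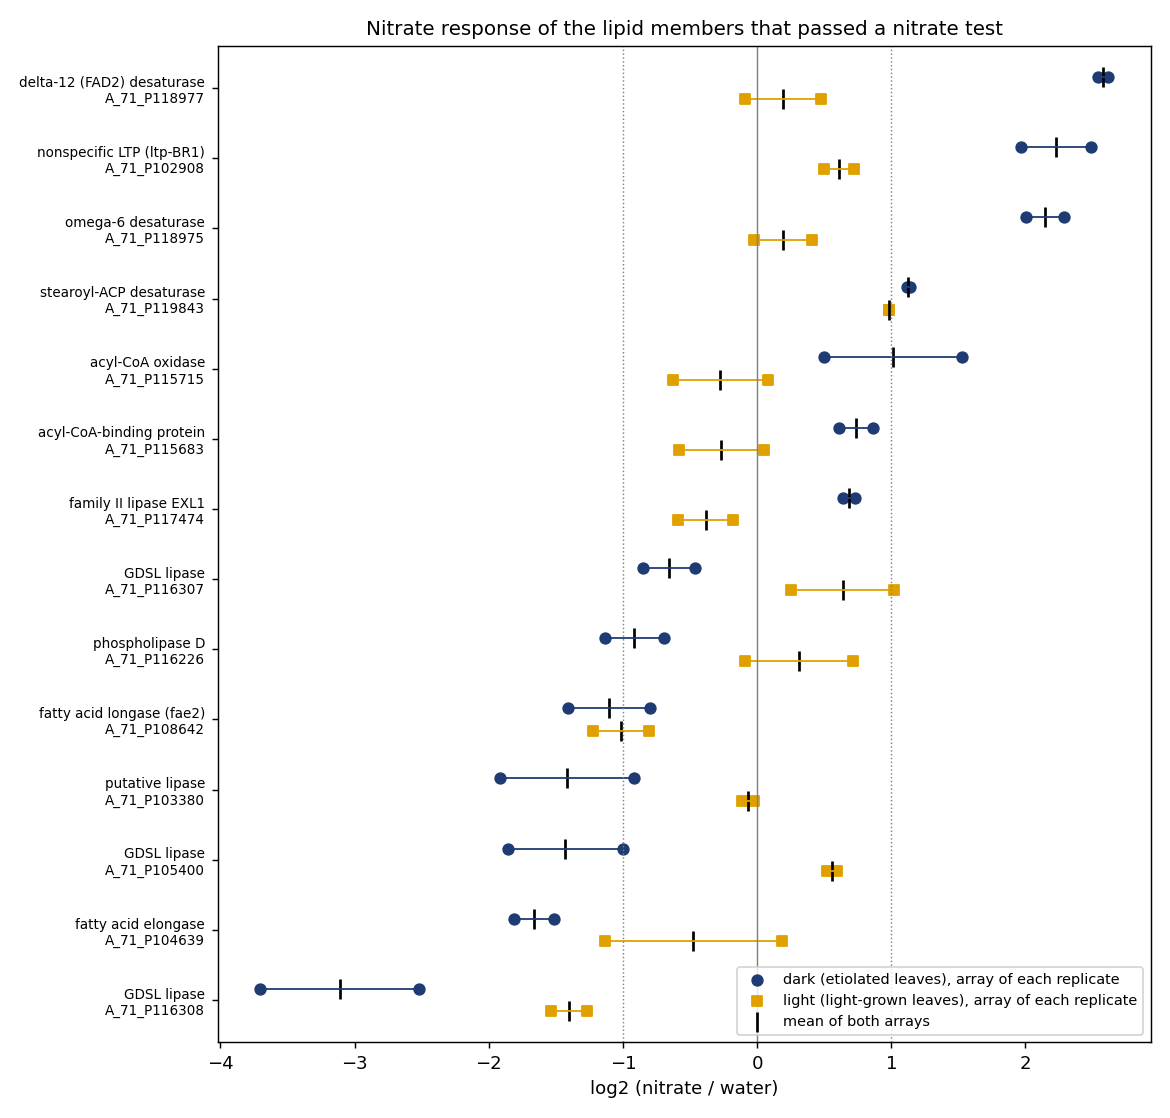
Log2 ratio of nitrate over water for 14 members, with circles for dark arrays and squares for light arrays, ticks at the means of 2 and dotted lines at −1 and 1. The FAD2-type probe (2.54 and 2.62 in dark) and the At5g55050-like lipase (−3.70 and −2.52 in dark) lie farthest from 0.

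In light-grown leaves 2 of 176 members were called with nitrate, both lower (1.14%), where 803 of 21495 probes on the array were called (3.74%, with 2.28% higher and 1.46% lower). Both were also called in dark, an overlap that was not counted for all probes. The count and its direction depended on single arrays. Without light replicate 1 the calls were 4 higher and 3 lower, 1 of them shared with the 2 above, and without light replicate 2 they were 2 higher and 0 lower, with 0 shared. Median centring in place of loess gave 3 higher and 1 lower. The median log2 ratio was 0.05 over members and −0.01 over all probes. No member passed Benjamini-Hochberg adjustment by limma, and 24 had an unadjusted p of at most 0.05 at any fold, as 16.1% of all probes did.

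The At5g55050-like lipase A_71_P116308 had a log2 ratio of −1.40 in light (unadjusted p = 0.01007, n = 2). This call needed both arrays, since the value was −1.54 (unadjusted p = 0.0537) without light replicate 1 and −1.27 (unadjusted p = 0.0847) without light replicate 2. The fae2-type longase A_71_P108642 had 979 and 798 units in light-grown nitrate-treated leaves, against 1711 and 1864 in light-grown water-treated leaves. Its log2 ratio was −1.02 (limma unadjusted p = 0.008263, n = 2), −0.81 (unadjusted p = 0.0774) without light replicate 2, −0.93 with normexp correction and −0.98 with median centring in place of loess.

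Of the members with unadjusted p at most 0.05, 4 stopped just short of the fold limit in light, all of them higher with nitrate. They were the stearoyl-ACP desaturase A_71_P119843 (0.98), a FAD8-like plastid omega-3 desaturase (A_71_P110408, AK058242, 0.99) and a pair of lipid transfer proteins, A_71_P116418 (0.99) and A_71_P108780 (AK107307, 0.91). The FAD8-like probe had 3602 and 2871 units in light-grown nitrate-treated leaves, against 1519 and 1715 in light-grown water-treated leaves. Its dark ratio was 0.25. Across the 176 members the ratios of both replicates correlated with r = 0.587 in dark and 0.16 in light, where all probes gave 0.462 and 0.449. The correlation among members was thus weak in light, but the distance between replicates was not larger there. The median absolute difference between replicates was 0.336 in dark and 0.297 in light for members, and 0.298 and 0.294 for all probes. Members share arrays and some share genes, and these correlations describe probes, not samples.

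The difference between the dark and the light response was tested as a contrast in the same fit. By the same thresholds 11 of 176 members differed, 6 with the higher ratio in dark and 5 with the lower (6.25%), where 1400 of 21495 probes differed (6.51%, with 2.98% higher and 3.54% lower). None passed Benjamini-Hochberg adjustment, the smallest adjusted p being 0.141. At any fold 29 members (16.5%) had an unadjusted p of at most 0.05, as 15.7% of all probes did. Both shares of members are near those of the array as a whole.

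Of the 10 members called in dark, 7 also differed from light, a count that was not made for all probes. The contrast uses the same dark ratios, so members picked for a large dark ratio are more likely to pass it. The FAD2-type desaturase A_71_P118977 had a difference of 2.38 (SE 0.26, limma unadjusted p = 0.0005994), and 1.99 with normexp correction, where it also passed. The omega-6 desaturase A_71_P118975 and the ltp-BR1-like A_71_P102908 met the thresholds too (1.95 and 1.61), but neither was well above background in any light-grown group, so that the light ratio in these differences is one of background values and their size is not measured. The ratio was lower in dark for the At1g71250-like lipase A_71_P105400 (−1.99, unadjusted p = 0.003611) and the At5g55050-like lipase A_71_P116308 (−1.71, unadjusted p = 0.01708). With normexp correction 8 of the 11 calls were lost, among them A_71_P118975 (0.33), A_71_P102908 (0.41), A_71_P105400 (−0.56) and A_71_P116308 (−0.55). The lipase A_71_P116308 lost this call without light replicate 1 (−1.58, unadjusted p = 0.0822) and without light replicate 2 (−1.84, unadjusted p = 0.0566). For the acyl-CoA oxidase A_71_P115715 the difference of 1.28 (unadjusted p = 0.0468) was lost without dark replicate 1 (0.77), without light replicate 1 (0.93) or without light replicate 2 (1.64, unadjusted p = 0.0571). The dim lipase A_71_P103380 (−1.35, unadjusted p = 0.0225) lost it without dark replicate 1 (−0.85), light replicate 1 (−1.40, unadjusted p = 0.0791) or light replicate 2 (−1.31, unadjusted p = 0.0915). The stearoyl-ACP desaturase A_71_P119843 (0.15, SE 0.18, unadjusted p = 0.457) and the longase A_71_P108642 (−0.09, SE 0.31, unadjusted p = 0.793) gave small differences, and a p of this size does not show that their responses were equal.

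A further 4 members differed without passing in either condition. The family II lipase EXL1-like probe (A_71_P117474, AK067876) had log2 ratios of 0.64 and 0.73 in dark and −0.59 and −0.18 in light (difference 1.07, limma unadjusted p = 0.008004). An acyl-CoA-binding protein (A_71_P115683, AK058833, described from ginseng), which carries acyl-CoA in the cytosol, had 0.61 and 0.86 in dark and −0.58 and 0.05 in light (1.002, unadjusted p = 0.0240). A second At5g55050-like lipase (A_71_P116307, AK065261) had −0.85 and −0.46 in dark and 0.25 and 1.02 in light (−1.30, unadjusted p = 0.0174). A phospholipase D (A_71_P116226, AK100278), an enzyme that cuts phospholipids to phosphatidic acid, had −0.70 and −1.14 in dark and 0.72 and −0.09 in light (−1.23, unadjusted p = 0.0245). These 4 were picked by this contrast, so the parting of their dark arrays from their light arrays is no further evidence. Of all probes 6.51% passed it. Each call rested on single arrays. The EXL1-like probe gave 0.86 without light replicate 1. The acyl-CoA-binding protein gave 0.69 without light replicate 1, 1.13 (unadjusted p = 0.0576) without dark replicate 1 and 0.88 without dark replicate 2. The second lipase gave −0.91 without light replicate 2 and −1.10 (unadjusted p = 0.0836) without dark replicate 1, and the phospholipase −0.83 without light replicate 1 and −1.01 (unadjusted p = 0.110) without dark replicate 2.

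**Figure D3:**
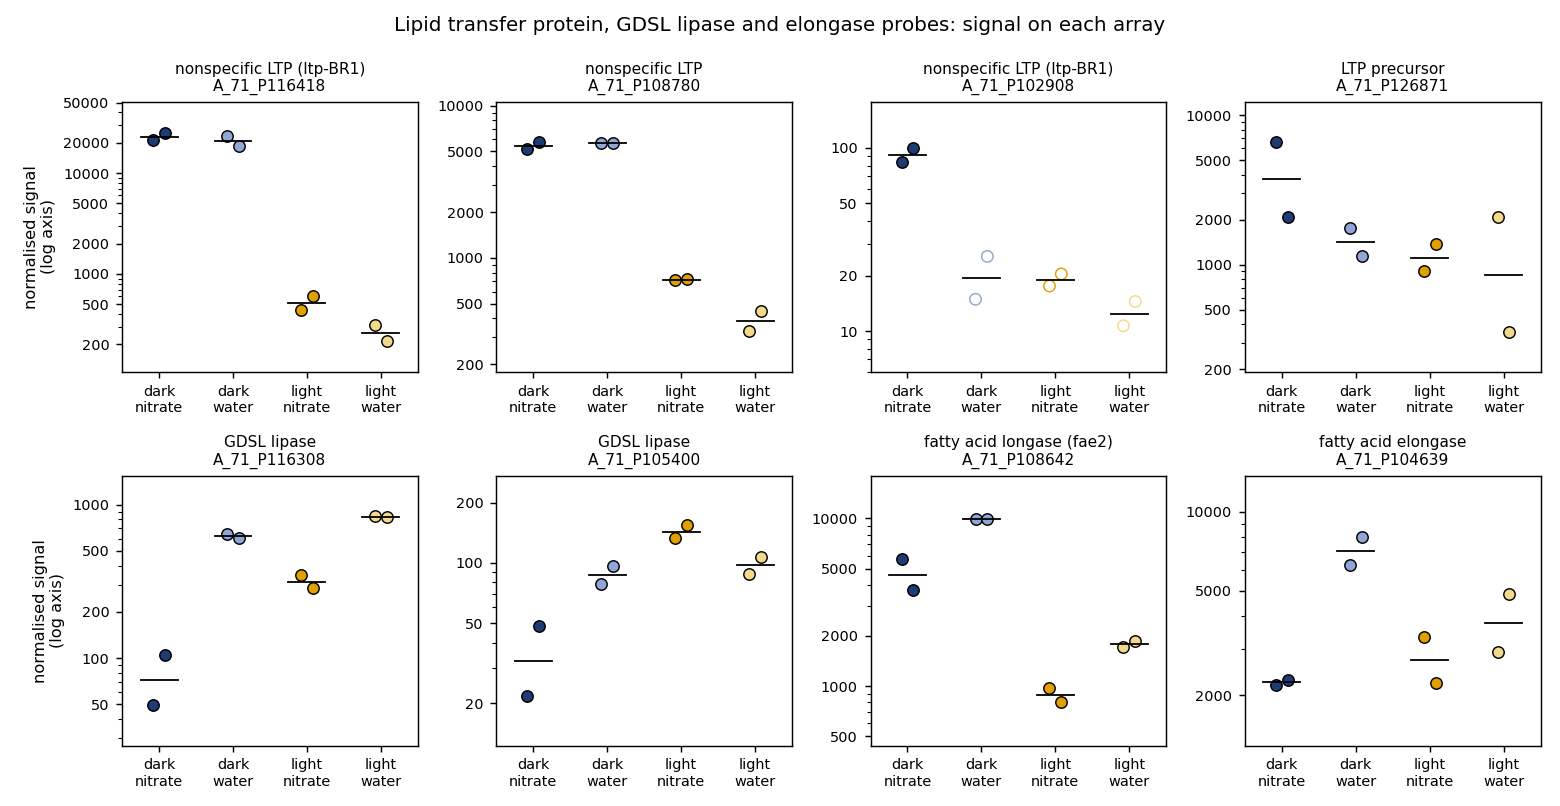
Normalised signal (arbitrary units, log axis) of named lipid transfer proteins, lipases and elongases in the 8 samples, by group, with circles for arrays, lines for geometric means of 2 and open symbols for groups not well above background on either array. The At5g55050-like lipase is lower with nitrate in both conditions (49.5 and 105 units in dark, 347 and 285 in light).

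Between etiolated and light-grown leaves 68 lipid transcripts differed in water, in both directions, with the largest differences among lipid transfer proteins, desaturases and lipases. Water-treated leaves of etiolated and light-grown seedlings were never on the same array, and were compared from single channels with limma, with calls at 1 or more on the log2 scale, either way, and adjusted p at most 0.05. By this rule 36 of the 176 members were higher and 32 lower in etiolated leaves (38.6% in all), where 6037 of 21493 probes differed (28.1%, with 14.1% higher and 14% lower). The median absolute log2 ratio was 0.75 over members and 0.58 over all probes, while the medians themselves were 0.01 and 0.02. For nitrate the median absolute ratio of the members was 0.20 in dark and in light. In 26 members the fold was at least 4 and in 8 at least 8, counts that were not made for all probes. Of the 19 green-leaf probes 12 were lower in etiolated water-treated leaves, 1 was higher and 6 were not called. Of 8 probes of pollen-specific genes and pollen allergens 1 was higher and 1 lower. Their sum of 18400 to 23600 units in etiolated water-treated leaves, against 4400 to 5770 in light-grown ones, rested on 1 allergen-like probe (A_71_P115134, log2 4.35), and without it was 2120 to 2330, against 3750 to 4490. Of 9 root-specific probes 1 was higher (A_71_P123098, 1.78) and 2 lower (A_71_P123101, −2.77, and A_71_P124226, −3.08), with sums of 55200 to 57500 units, against 60600 to 66400. Of 9 endosperm probes 0 were higher and 2 lower, both glutelins (A_71_P101848, −4.83, and A_71_P109709, −1.99) that were not well above background in etiolated leaves. The part of such cells in the result was not tested.

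In the nitrate-treated leaves, whose RNA came from the same arrays, 72 members differed, 37 higher and 35 lower (40.9%), against 6548 of 21493 probes (30.5%). Of the members, 31 were higher and 25 lower in etiolated leaves in both comparisons, a count that was not made for all probes. Leaving out any single array kept 58 of the 68 calls in water and 54 of the 72 with nitrate. With normexp correction 18 of the 68 calls in water were lost, and the fold of 22 moved by over 1.5 times. Of the members named below, the lost ones were A_71_P126867 (0.84), A_71_P104676 (0.56), A_71_P121850 (0.33), A_71_P125489 (0.96), A_71_P122643 (0.90) and A_71_P109988 (0.85).

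Lipid transfer proteins held the highest of all members. The ltp-BR1-like A_71_P116418 had 23180 and 18660 units in etiolated water-treated leaves, against 309 and 216 in light-grown water-treated leaves, a log2 ratio of 6.33 (SE 0.24, n = 2 each, limma adjusted p = 2.879e-05, 80.5-fold). An At2g44290-like protein, A_71_P108780, had 5678 and 5709 units in etiolated leaves, against 328 and 447 in light-grown leaves (3.89). A durum wheat ltp7.1-like protein (A_71_P109351, AK062506) had 3090 and 2533, against 339 and 264 (3.23). A barley-described lipid transfer protein (A_71_P102434, AK071598) had 6839 and 6740, against 664 and 874 (3.16). Of the 23 lipid transfer probes 6 were higher in etiolated leaves, 0 lower and 17 not called. The share called was 26.1%, below the 28.1% of all probes. Those described from other species made up 5 of the 6, out of 12 such probes, while 1 of 11 probes described from a rice sequence was called, A_71_P126867 (AK059808, 1.22). The rice-described b21 (A_71_P126870, AK060340) and b1 (A_71_P126868, AK058921) had ratios of 0.04 and −0.08, and an At2g44290-like one (A_71_P119251, AK060951) had −0.04.

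Desaturases went both ways. Of 22, 7 were higher and 4 lower in etiolated leaves (50%, against 28.1% of all probes). A delta-9 stearoyl-ACP desaturase (A_71_P102610, AK101524, described from Thunbergia alata) had 56540 and 56170 units in etiolated water-treated leaves, against 2648 and 3040 in light-grown ones (log2 4.31, SE 0.15, limma adjusted p = 2.539e-05, n = 2 each). The other called stearoyl-ACP desaturases were A_71_P119843 (2.63) and A_71_P112212 (AK065340, 1.501), both higher. The SSI2-like probes A_71_P100036 (AK060087) and A_71_P100037 (AK103568) were lower by less than the fold limit (−0.72 and −0.76). A sphingolipid delta-4 desaturase (A_71_P106559, AK101968), which acts on the long-chain bases of sphingolipids, had 4362 and 4138 units in etiolated leaves, against 267 and 237 (4.08, adjusted p = 2.278e-05).

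Omega-3 desaturases form linolenic acid. A FAD7-like plastid enzyme had 946 and 911 units in etiolated water-treated leaves, against 5528 and 5847 in light-grown ones (A_71_P119180, AK061531, log2 −2.62, SE 0.12, limma adjusted p = 3.898e-05). A second FAD7-like probe (A_71_P119181, AK098930) gave −2.37. The FAD8-like plastid probe A_71_P110408 was instead higher in etiolated leaves, with 5540 and 5571 units against 1519 and 1715 (1.78). Of 6 probes described as the microsomal enzyme, A_71_P125710 (AK111513) was higher, with 77420 and 75930 units in etiolated leaves, against 11540 and 12550 (2.67, with saturated spots in etiolated leaves). A_71_P104676 (AK064479, 1.93) was also higher, while A_71_P109110 (AK062803) was lower, with 51.9 and 31.6 units, against 433 and 490 (−3.51). A proplastid omega-6 desaturase (A_71_P120658, AK060449) was lower too (−1.75).

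Plastid synthesis genes showed both directions among their acyl carrier proteins. The barley ACP I-like probe (A_71_P125614, AK060472) had 1592 and 1253 units in etiolated water-treated leaves, against 6498 and 4807 in light-grown ones (log2 −1.98, limma adjusted p = 0.000778, n = 2 each), and an ACP III-like probe (A_71_P109530, AK108342) gave −1.43. A rice sequence named after ACP II (A_71_P122732, AK058903) was higher (1.10), though only 0.95 without light replicate 1. An acyl carrier protein precursor (A_71_P119154, AK100823) had 12480 and 11100 units in etiolated leaves, against 13170 and 10610, with overlapping groups (−0.01). Of 4 ketoacyl-ACP synthases, which add carbon units to the growing chain, 2 were higher, A_71_P118818 (AK067275, 1.35) and A_71_P116742 (AK060515, 1.24), and none lower.

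Elongases were higher or not called. Of 11, 4 were higher in etiolated leaves (36.4%, against 28.1% of all probes). The group had a median log2 ratio of 0.91, where the median of all probes was 0.02. A fae2-type longase (A_71_P107216, AK067907) had 51160 and 68030 units in etiolated water-treated leaves, against 9142 and 10870 in light-grown ones (2.57, limma adjusted p = 0.0002521, n = 2 each). The longase A_71_P108642, lower with nitrate in dark and in light, was higher in etiolated leaves (2.47), as was A_71_P113636 (AK070754, 1.44). The fourth, a ketoacyl-CoA synthase-like probe (A_71_P121850, AK105487), gave 1.57 but adjusted p = 0.0803 without light replicate 1 and 0.147 without light replicate 2. Both FAH1-like fatty acid hydroxylases were higher, A_71_P107503 (AK103085) with 2345 and 2245 units in etiolated leaves, against 280 and 403 (2.77), and A_71_P125489 (AK061110) by 1.42.

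In water-treated leaves acyl-CoA genes had more members lower than higher. Of 15 other acyl-CoA probes 1 was higher and 5 lower (40%, against 28.1% of all probes). In nitrate-treated leaves 2 were higher and 2 lower, with 12 of the ratios negative in each comparison. LACS9-like acyl-CoA synthetases, which activate fatty acids leaving the plastid, had 5665 and 5865 units in etiolated water-treated leaves, against 27650 and 23990 in light-grown ones (A_71_P126628, AK061697, log2 −2.16, limma adjusted p = 0.0001206). A second LACS9-like probe (A_71_P125521, AK065718) gave −2.08. The acyl-CoA-binding protein A_71_P115683 was lower as well (−1.60). Of 6 beta-oxidation probes 5 had negative ratios and 1 was called (16.7%, against 28.1% of all probes). It was a rice 3-ketoacyl-CoA thiolase (A_71_P106126, AK069768), which splits off acetyl-CoA. The thiolase had 9237 and 8516 units in etiolated leaves, against 21710 and 20410 (−1.25).

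Among the 39 other lipases 3 were higher and 10 lower in etiolated leaves (33.3%, against 28.1% of all probes), with a median of −0.40. An EXL3-like family II lipase (A_71_P122729, AK111927) was not well above background in etiolated leaves, with 13.2 and 9.95 units, against 244 and 214 in light-grown ones. It was 19.9-fold lower (limma adjusted p = 3.011e-05) with the scanner software's background correction and 2.74-fold lower with normexp. A GDSL lipase resembling At1g71250 (A_71_P125561, AK070277) had 307 and 287 units in etiolated leaves, against 1457 and 1577 (−2.35), and a carnation lipase-like probe (A_71_P100755, AK069577) had 310 and 309, against 1248 and 1708 (−2.24). All 5 triacylglycerol lipase probes had negative ratios, from −1.79 to −0.40, and 2 of them passed, A_71_P118730 (AK072772, −1.79) and A_71_P109797 (AK059731, −1.56). The steroleosin-like A_71_P124764 (AK106189), of the oleosin group, had 5098 and 5540 units in etiolated leaves, against 21220 and 16610 (−1.82). Of the lipases that nitrate lowered in dark, A_71_P116308 (−0.42, adjusted p = 0.380) and A_71_P105400 (−0.16, adjusted p = 0.790) did not pass in this comparison.

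Phospholipases were even, with 5 higher and 5 lower of 27 (37%, against 28.1% of all probes). Of the 5 phospholipase D delta-like probes, 2 were higher. A_71_P122644 (AK100579) had 1510 and 1337 units in etiolated water-treated leaves, against 248 and 236 in light-grown ones (2.56), and A_71_P122643 (AK109315) had 248 and 362, against 54.4 and 65.8 (2.32). A PLDb2-like probe (A_71_P123507, AK073012) was higher by 2.11. Phospholipases C, which release diacylglycerol, had 2 of 6 probes lower and 0 higher, A_71_P114507 (AK064924, −1.18) and A_71_P117895 (AK061472, −1.19).

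Sterol genes had more members higher than lower. Of 14, 5 were higher and 2 lower in water-treated leaves (50%), and 12 had positive ratios. Of all probes 28.1% were called there, 14.1% higher and 14% lower. In nitrate-treated leaves 5 sterol members were again higher and 2 lower, but only 9 had positive ratios. Squalene is the first sterol precursor, and a rice squalene synthase (A_71_P119259, AK063341) had 3864 and 3830 units in etiolated water-treated leaves, against 1346 and 1415 in light-grown ones (1.48, limma adjusted p = 0.0001673). Squalene monooxygenase 2-like probes were higher, A_71_P109987 (AK068401) by 2.56 and A_71_P109988 (AK073426) 6.78-fold. The light-grown values of A_71_P109988, 28.0 and 19.3 units, were not well above background, against 148 and 168 in etiolated leaves. With normexp correction it was 1.8-fold higher. A squalene monooxygenase 1-like probe (A_71_P109990, AK065032) went the other way, with 3353 and 3256 units, against 9700 and 14140 (−1.83). CYP51, the sterol 14-demethylase (A_71_P125026, AK060487), was higher with 53040 and 47940 units, against 9132 and 12510 (2.24).

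After nitrate, some members parted the etiolated from the light-grown leaves that had not done so in water, in values that share channels with the nitrate ratios above and are no separate evidence of them. The FAD2-type desaturase A_71_P118977 had a log2 ratio of 3.05 in nitrate-treated and 0.67 in water-treated leaves. The omega-6 desaturase A_71_P118975 (log2 3.305) and the ltp-BR1-like A_71_P102908 (2.264) were higher in etiolated nitrate-treated leaves. Their light-grown values were not well above background, and in water neither passed (1.36 and 0.65). With normexp correction both calls were lost, at log2 0.49 and 0.53. The lipase A_71_P116308 was lower after nitrate (−2.13), a call lost without light replicate 1 (−1.98, adjusted p = 0.0621) and with normexp (−0.97). The lipase A_71_P105400 (−2.15) lost its call without light replicate 1 (−2.26, adjusted p = 0.0548), without light replicate 2 (−2.04, adjusted p = 0.0674) and with normexp (−0.45).

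**Figure D4:**
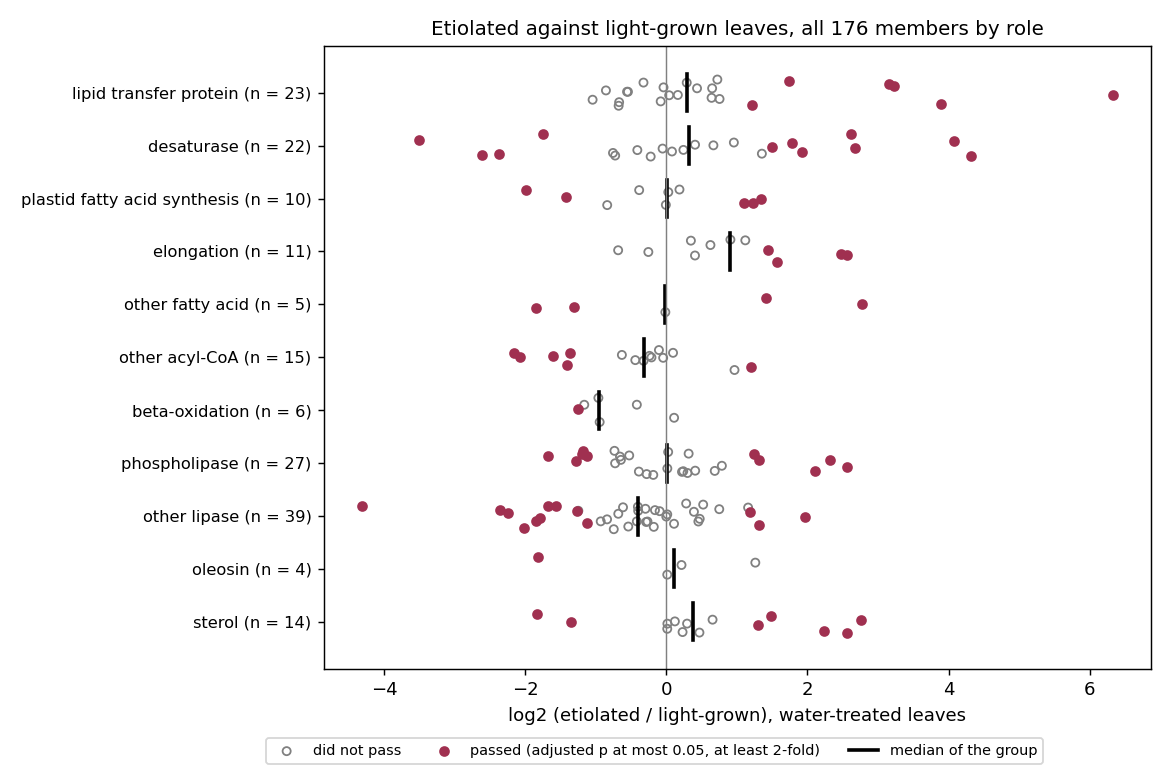
Log2 ratio of etiolated over light-grown water-treated leaves for each of the 176 members, 1 point per probe, by role, with filled points for called members, open points for the others and a bar at the median of each role. Lipid transfer proteins reach 6.33, elongases have 4 called points, all above 0, and lipases reach −4.32.

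Beside the members, 74 further probes were matched by words such as lipoxygenase, acetyl-CoA carboxylase and isocitrate lyase. Of these, 13 turned out to name no lipid gene (Waxy, 2-isopropylmalate synthase, farnesylated proteins, protein farnesyltransferase and phosphatidylserine receptor), which left 61. With nitrate in dark 0 of the 61 were called by limma, where 3.53% of all probes were. In light 4 were called, 2 higher and 2 lower (6.56%, against 3.74% of all probes), and in etiolated against light-grown water-treated leaves 13 were higher and 11 lower (39.3%, against 28.1%). Over all 74 the counts were 0, 4 and 29. All 4 light calls were of lipoxygenases and an allene oxide synthase, enzymes that turn linolenic acid into oxylipins such as jasmonate. A lox2-like lipoxygenase (A_71_P104878, AK071915) had 895 and 936 units in light-grown nitrate-treated leaves, against 335 and 303 in light-grown water-treated leaves (log2 1.52, limma unadjusted p = 0.0002474, n = 2). In etiolated leaves it was not well above background. A maize-described lipoxygenase (A_71_P108084, AK103565) was lower, with 59.7 and 42.0 units, against 132 and 108 (−1.26), a call lost with normexp (−0.53). The other light calls rested on single arrays. The lipoxygenase rci-1 (A_71_P126555, 1.03) gave 0.62 without light replicate 1 and −0.07 with normexp, and the allene oxide synthase A_71_P105848 (−1.45) gave −0.65 without light replicate 2 and −0.38 with normexp. In water-treated leaves isocitrate lyase (A_71_P118831, AK063353), the glyoxylate cycle enzyme that lets seedlings make sugar from fat, was lower in etiolated leaves. It had 7.08 and 7.31 units there, not well above background, against 700.0 and 911 in light-grown ones. This was 111.0-fold lower with the scanner software's background correction and 8.40-fold lower with normexp.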

How the data were processed

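The authors deposited scanner output of 4 two-colour Agilent arrays from 1 slide, holding intensity values of both channels and log10 ratios of each spot, after background subtraction and dye normalization by Feature Extraction 9.5.3.1 (per the file headers, where the methods name an older version). They also deposited a table of normalized ratios, of which the centring (column medians 0.99, 0.9887, 1.001 and 1.009) and the direction are not stated. No columns of fold changes or p-values were used.

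The processed signals were turned into log2 ratios of channel 2 over channel 1, normalized by loess (span 0.3, 4 iterations, control and outlier spots at weight 0) and averaged over 2 spots. They were fitted with limma 3.58.1 in R 4.3.3 on all 4 arrays. Etiolated and light-grown leaves were compared in single channels (Aquantile, statmod 1.5.0, correlation within spots −0.044), from which the normalised signals printed here come. Where a probe was not well above background on every array of 1 group, its fold depends on the background correction and is no lower bound. Replicates were independent biological samples with flipped dyes. Their small number limits the precision.

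The members and lists (roles, other pathway genes, green-leaf, etiolated-leaf, endosperm, root and pollen markers) were chosen with earlier results of these data known, and 6 longase probes joined the elongases after their descriptions were read. Named were up to 6 members each way among those called and above background in each nitrate comparison, 8 each way for etiolated leaves, those called in dark and light or after adjustment, and the brightest of groups not otherwise named. All others named were picked after their values were seen. None of the 176 accessions was found in the RefSeq gene table, so gene symbols, positions and sequences are not given here. On simulated data with independent noise limma called 93 of 100 probes set to a log2 ratio of 1.5 in dark, and 109 of 21295 unchanged ones. It called 84 of 100 and 290 unchanged for the difference, and 63 of 100 and 5 unchanged for etiolated against light-grown water-treated leaves. The unchanged probes had a median absolute log2 ratio of 0.109 in dark, against 0.218 over all probes of the real arrays. These rates may therefore not hold for the real data. The simulated arrays also shared 1 mean level per probe, with no variation between arrays beyond the independent noise. Etiolated and light-grown leaves were compared across arrays, so the simulated rates for that comparison cannot speak for the real one.

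The alternatives were another background correction, median centring, the scanner's or the deposited ratios, a filter on dim probes, outlier spots included, a dye term, conditions fitted alone, no moderation, adjusted p, a log2 limit of 0.95, 1 value per Arabidopsis locus described, quantile normalization, no correlation within spots, and each array left out.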

Additional observations from a re-analysis of the deposited data

Results flagged for a closer look

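The response to nitrate differed between dark and light in 11 members by the contrast of the limma fit (unadjusted p at most 0.05, 6.51% of all probes, and 0 members after Benjamini-Hochberg adjustment). Their differences, dark minus light on the log2 scale, with the dark and the light ratio beside each, follow one by one. The FAD2-type desaturase A_71_P118977 had 2.38 (2.58 in dark, 0.19 in light, limma unadjusted p = 0.0005994). Its relative A_71_P118975 had 1.95 (2.14 in dark, 0.19 in light), and neither light channel was well above background, so that the size of the difference is not measured. The lipid transfer protein A_71_P102908 had 1.61 (2.23 in dark, 0.61 in light), where only etiolated nitrate-treated leaves were well above background, with the same limit. The acyl-CoA oxidase A_71_P115715 had 1.28 (1.01 in dark, −0.27 in light), the EXL1-like lipase A_71_P117474 1.07 (0.69 in dark, −0.38 in light) and the acyl-CoA-binding protein A_71_P115683 1.002 (0.74 in dark, −0.27 in light).

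On the other side the phospholipase D A_71_P116226 had −1.23 (−0.92 in dark, 0.31 in light) and the GDSL lipase A_71_P116307 −1.30 (−0.66 in dark, 0.64 in light). The dim lipase A_71_P103380 had −1.35 (−1.42 in dark, −0.07 in light). The lipase A_71_P116308 had −1.71 (−3.11 in dark, −1.40 in light), both ratios being negative, and the lipase A_71_P105400 −1.99 (−1.43 in dark, 0.56 in light). Of the 11 calls, 4 held without each array in turn, and 8 were lost with normexp correction. No group had enough arrays for a search for samples far from the others.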

How the results depend on the processing

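With normexp correction the members called were 6 in dark (10 in the main setting), 1 in light (2) and 4 in the difference (11). All probes gave 222, 271 and 501 in these 3 nitrate comparisons. In etiolated against light-grown leaves 50 members were called in water (68) and 49 with nitrate (72). All probes gave 3880 in water (18.1%, 28.1% in the main setting) and 4309 with nitrate (20%, 30.5% in the main setting). Without moderation the members called were 3 in dark, 0 in light and 5 in the difference (236, 283 and 693 probes), and at adjusted p 1, 0 and 0 (48, 67 and 0 probes). In light median centring gave 4, with 3 higher and 1 lower in place of 0 and 2, and a log2 limit of 0.95 gave 5. Leaving out 1 array gave 10 to 13 in dark, 2 to 7 in light and 7 to 15 in the difference, with 7 in light and 7 in the difference without light replicate 1. In etiolated against light-grown leaves it gave 66 to 71 in water and 64 to 70 with nitrate. Without light replicate 2 the 2 calls in light were both higher, in place of 2 lower. The counts over all probes also moved when an array was left out, so such shifts are not particular to the members. No called value of a member changed sign under these settings in the nitrate comparisons, while 1 did in water and 1 with nitrate in etiolated against light-grown leaves. Over the alternatives, the calls of single members were kept in 121 cases and lost in 28 in dark, kept in 21 and lost in 9 in light, and kept in 108 and lost in 43 for the difference. These cases are not independent, since some settings repeat the same fit or only relax the threshold. The causes were not tested.

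No paired analysis was possible because the labels carry no replicate numbers that pair groups, beyond the array that nitrate and water share. With the 29 probes that name 9 shared Arabidopsis loci averaged within each, 156 values were left, with 7 called in dark (5 higher, 2 lower), 1 in light (lower) and 7 in the difference (6 higher, 1 lower), and the lipases A_71_P116308, A_71_P105400 and A_71_P103380 were no longer called. No source used here says which other probes share a gene. With 2 arrays per condition and 21 members below background in every channel, changes in dim members are the least certain.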
